A study of Rattus norvegicus with 6 samples.

Results

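Protein folding in the endoplasmic reticulum (ER) was followed through 35 genes for stress sensors, chaperones, disulfide isomerases and the machinery that degrades misfolded proteins. The genes were taken by name from a fixed list, which was chosen with earlier results of these data known. Each of the 35 had 1 row among the 19088 rows of the deposited gene table. The RNA came from primary cells of the nucleus pulposus, the soft centre of the intervertebral disc, taken from rats of the strain labelled SD and grown in medium with fetal bovine serum. The rShh group (3 samples) had received rShh, recombinant Sonic hedgehog, a secreted ligand of the Hedgehog pathway, dissolved in DMSO, for 48 h at 200 ng/ml. The Control group (3 samples) had received DMSO alone for 48 h. Whether replicates were cultures of their own or came from different rats is not labelled, so every p-value here rests on the spread between 3 samples, and that spread may be technical.

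Proteins bound for secretion enter the ER through the Sec61 channel, fold with the help of chaperones and receive disulfide bonds there. When unfolded proteins build up, 3 sensors in the ER membrane respond in what is called the unfolded protein response. PERK (gene Eif2ak3) slows translation, IRE1 (Ern1) splices the mRNA of the transcription factor Xbp1, and ATF6 (Atf6) is cut to release a transcription factor, so that genes for chaperones and for ER-associated degradation (ERAD) are induced. Disc cells send collagen and proteoglycan to their matrix through this route.

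The rShh libraries held 65116846 to 70031072 counts over genes, and the Control libraries 50758195 to 55501124. The members took 1.35% to 1.37% of the counts in the rShh libraries and 1.301% to 1.37% in the Control libraries. The mitochondrial share was 3.25% to 3.36% in the rShh libraries and 1.97% to 2.28% in the Control libraries. Counts of the Y-linked genes Eif2s3y and Kdm5d summed to 6103 to 6494 in the rShh libraries and were 0 in the Control libraries, so this difference and the ligand cannot be told apart in any comparison here. Among nucleus pulposus markers, 11 of 17 symbols were analysed, and their summed level was 227 to 241 FPKM (fragments per kilobase of transcript, scaled to library size) in the rShh libraries and 122 to 126 FPKM in the Control libraries. The list itself was divided. Of the 10 tested, 4 were higher in the rShh group, 5 were lower and 1 did not pass (edgeR adjusted p below 0.05). Their median log2 change was -0.14, and 31.5% of all genes tested were higher and 28.8% lower. Sox9, Foxa2, Krt18 and Col2a1, defining markers of that list, were below 1 FPKM on average. Summed levels of 6 smooth muscle and pericyte markers were 3449 to 3578 FPKM in the rShh libraries and 2026 to 3044 FPKM in the Control libraries. Of these 6, 5 were called higher in the rShh group and 1 did not pass. Their log2 changes ran from 0.31 to 9.29, with a median of 2.49. Summed levels of 4 annulus and tendon markers, Col1a1 among them, were 2408 to 2452 FPKM in the rShh libraries and 4959 to 5356 FPKM in the Control libraries. Yet 2 of these 4 were called higher and 2 lower in the rShh group, with log2 changes from -1.58 to 6.08. Macrophage markers (4 of 8 symbols analysed) summed to 6.24 to 7.76 FPKM in the rShh libraries and 5.34 to 6.99 FPKM in the Control libraries. Endothelial markers (3 of 6 analysed) summed to 0.341 to 0.364 FPKM in the rShh libraries and 0.873 to 1.26 FPKM in the Control libraries. Epithelial markers (2 of 4 analysed) summed to at most 0.0214 FPKM in the rShh libraries and 0.144 FPKM in the Control libraries, and the erythroid marker Alas2 was at 0.0712 to 0.1296 FPKM in the rShh libraries and listed at 0 in the Control libraries. The part of these differences in the results below was not tested, and in bulk RNA fewer cells of a type and less RNA per cell cannot be told apart.

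The summed level of the 35 genes differed between the groups by less than its spread, while its composition differed. It was 4808, 4876 and 4921 FPKM in the rShh libraries and 4875, 4770 and 4832 FPKM in the Control libraries, or 4868 ± 57.2 and 4825 ± 52.9 FPKM (SD, n = 3 each). Each of the 35 passed the filter on low counts, the sparsest being Derl3 with at least 52 counts per library and the next with at least 738. Of the 35, 25 passed edgeR's quasi-likelihood test at an adjusted p below 0.05. Among all 14775 genes tested, 60.3% did. In the rShh group 11 of the 35 rose and 14 fell, against 31.5% higher and 28.8% lower among all genes. The CPM values (counts scaled to library size) of the groups did not overlap for 30 of the 35 genes, against 68.1% of all genes.

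The changes were small for most members. The median absolute log2 change was 0.26 over the 35 genes and 0.49 over all genes tested, and 0.36 and 0.68 over those called. Only Ero1a, Atf6 and Hsp90b1 rose by at least 1.5-fold (3 of 35, against 21.2% of all genes), and Herpud1 was the only member that fell by that much (1 of 35, against 14.0%). The members are abundant genes, with a median of 42.6 FPKM against 5.62 FPKM over the genes tested, so small differences were measured on many counts. Their sizes of change were not compared with those of genes at a like level. With a test against a change of 1.5-fold, 2 members (Ero1a and Atf6) were higher and 1 (Herpud1) was lower in the rShh group.

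**Figure D1:**
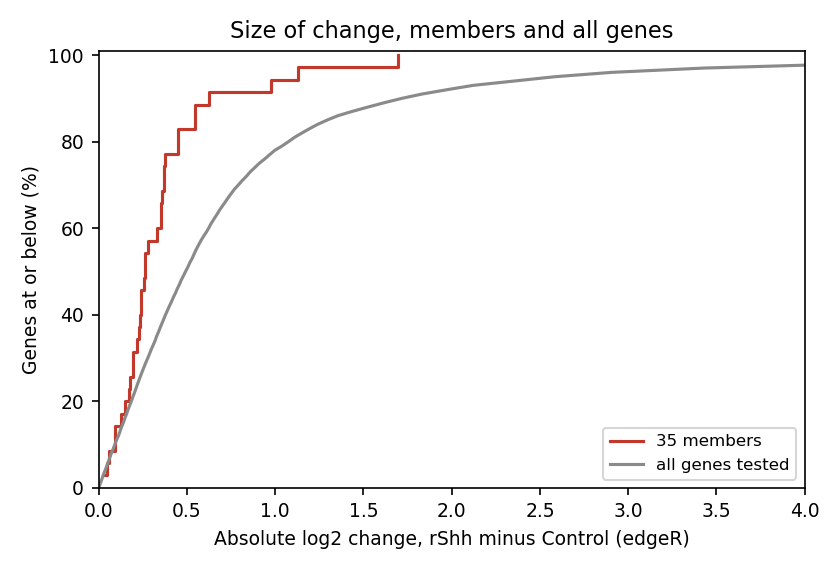
Cumulative share of genes (y axis, percent) at or below an absolute log2 change between rShh and Control (x axis, edgeR), for the 35 members as a stepped line and for the 14775 genes tested as a smooth line, with the x axis ending at 4. The members' line lies to the left, with medians of 0.26 and 0.49, and its last steps are Hsp90b1, Atf6, Herpud1 and Ero1a.

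By role, the 3 sensors rose, 2 of the 3 effectors fell, the 11 chaperones divided into 3 higher, 5 lower and 3 not passing, and of the 5 isomerase and oxidase genes 3 rose and 2 did not pass. Of the 11 degradation genes 2 rose, 6 fell and 3 did not pass, and of the 2 channel subunits 1 fell and 1 did not pass. These counts of few genes stand beside 31.5% higher and 28.8% lower among all genes tested. The median log2 change was 0.37 for the sensors, -0.26 for the effectors, -0.03 for the chaperones, 0.18 for the isomerases and oxidase, -0.23 for the degradation genes and -0.20 for the channel, beside 0.01 over all genes tested. Summed FPKM was 1.76 times the Control level in the rShh group for the sensors, 1.18 times for the isomerases and oxidase, 0.99 times for the chaperones, 0.88 times for degradation, 0.87 times for the channel and 0.81 times for the effectors.

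**Figure D2:**
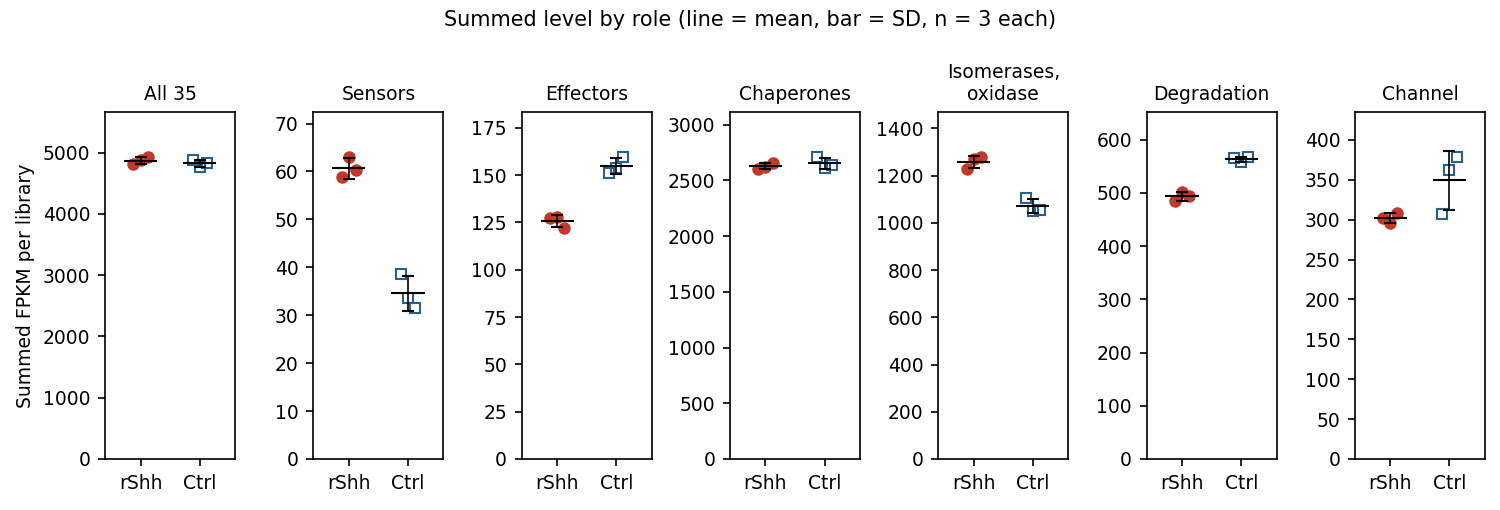
Summed FPKM of the members of each role (y axes, from 0) in the 3 rShh and the 3 Control libraries (points), with the mean as a line and the SD as a bar. The sums over all 35 genes (4868 and 4825 FPKM) and over the chaperones overlap between the groups, the sensor and isomerase sums are higher and the effector and degradation sums lower in rShh, and 1 Control library has a low channel sum.

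Promoter letters known from studies of ER stress in mammals were searched because they are the route by which the sensors reach these genes. The windows run from 250 bases before to 50 after the gene start in RefSeq's rat assembly GRCr8, and 26 of the 35 members matched one by symbol; Atf6, Ern1, Manf, Pdia3, Pdia6, Ero1a, Derl1, Os9 and Sec61a1 did not. The ER stress response element, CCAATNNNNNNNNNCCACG, bound by ATF6 together with NF-Y, was searched on both strands. It occurred in 22 of the 33469 windows (0.0657%) and in those of 8 of the 26 members (30.8%). The first is a share of windows and the second of genes. Since the letters come from studies of ER stress, such shares, here and below, were not compared. The 8 members were Hsp90b1 and Canx, which rose, Hspa5, Calr, Creld2 and Xbp1, which fell, and Dnajc3 and Derl3, which did not pass. Genes with the element thus moved both ways. The stretches below show it for the 6 of these genes that were called, with the match in capitals (its reverse complement where it begins with CGTGG).

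Hsp90b1, chr7:23012327-23012489, minus strand: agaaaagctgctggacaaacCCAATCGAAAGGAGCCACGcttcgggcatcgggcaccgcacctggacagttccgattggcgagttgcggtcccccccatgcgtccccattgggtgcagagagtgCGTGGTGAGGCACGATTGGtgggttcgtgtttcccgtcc
Canx, chr10:35158049-35158107, minus strand: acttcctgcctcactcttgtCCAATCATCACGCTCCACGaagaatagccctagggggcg
Creld2, chr7:121789219-121789277, plus strand: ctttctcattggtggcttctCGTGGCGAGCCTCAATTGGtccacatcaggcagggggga
Hspa5, chr3:38452953-38453011, plus strand: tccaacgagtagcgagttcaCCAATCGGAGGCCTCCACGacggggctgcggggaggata
Calr, chr19:40213117-40213173, plus strand: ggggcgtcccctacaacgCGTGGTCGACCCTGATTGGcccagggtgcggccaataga
Xbp1, chr14:84604538-84604596, plus strand: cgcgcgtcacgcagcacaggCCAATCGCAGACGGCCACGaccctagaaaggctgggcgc

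Of these 6, Hsp90b1 had 2 copies, 1 on each strand, and the others had 1. The copy in Hspa5 began 43 bases before the gene start and that in Xbp1 65 bases before it, while those in Canx and Calr began 230 and 232 bases before it. A shorter second form, ATTGGNCCACG, occurred in 17 windows (0.0508%) and in 3 of the 26 members (11.5%). Herpud1 and Hyou1 fell, and Dnajb11 did not pass. The windows of Herpud1 and Hyou1 are shown because these genes had the lowest log2 changes of the 35, a choice made after their values were seen.

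Herpud1, chr19:10614801-10614851, minus strand: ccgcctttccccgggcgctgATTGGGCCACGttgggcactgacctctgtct
Hyou1, chr8:53602674-53602824, plus strand: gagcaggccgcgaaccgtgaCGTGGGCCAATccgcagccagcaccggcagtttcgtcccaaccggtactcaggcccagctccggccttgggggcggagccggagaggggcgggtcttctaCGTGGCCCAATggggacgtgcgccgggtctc

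An element bound by XBP1 and ATF6, TGACGTGG, was found in 199 windows (0.595%) and in those of Hyou1 and Vcp, and in Hyou1 it shares bases with a copy of the second form. TGATGNAA, a core of the element bound by ATF4, was in 1332 windows (3.98%) and in those of Ppp1r15b and Herpud1. Outside the members, 13 gene symbols had a window with the longer element, of which 8 were tested. Of these, 5 rose (Birc5, Hnrnpa3, Ppm1l, Zfand2a and Ero1b, an oxidase related to Ero1a) and 3 did not pass. The second form was in the windows of 14 other symbols, of which 7 were tested; 4 rose, 2 fell and 1 did not pass. These counts of few genes, like those of the members with an element, stand beside 31.5% higher and 28.8% lower among all genes tested. The matches describe letters only.

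The 3 sensors were higher in the rShh group. Atf6 (chromosome 13, 89055983 to 89242443, minus strand, coordinates as in the deposited table, whose build is not given) was at 45.4, 49.3 and 47.0 FPKM in the rShh libraries and 26.9, 23.5 and 21.2 FPKM in the Control libraries. The lowest rShh library lay well above the highest Control library, and the log2 change was 0.97 (SE 0.08, edgeR adjusted p = 2.46e-06), the second highest of the 35. In order of level Atf6 stood at place 17 of the 35 in the rShh group and at place 26 in the Control group. Eif2ak3, the gene of PERK, had 8.15, 7.71 and 7.21 FPKM in the rShh libraries and 6.49, 5.41 and 5.84 FPKM in the Control libraries, a change of 0.37 (SE 0.09, edgeR adjusted p = 0.00407). Its groups did not overlap. Ern1, the gene of IRE1, was at 5.22, 5.95 and 5.997 FPKM in the rShh libraries and 5.21, 4.63 and 4.38 FPKM in the Control libraries. One rShh library of Ern1 came close to the highest Control library, and the change was 0.26 (SE 0.08, edgeR adjusted p = 0.0178). That call did not hold in 7 of 16 alternatives (edgeR, limma or DESeq2 adjusted p from 0.00469 to 1), among them those without rShh replicate 2 (0.0692), rShh replicate 3 (0.0788) or Control replicate 2 (0.0580). The upper end of this and later ranges of adjusted p came from the test against a change of 1.5-fold. Apart from that test, the highest adjusted p of Ern1 was 0.0788 (limma without a filter).

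Downstream of the sensors, Xbp1 and Ppp1r15a fell. Xbp1, the transcription factor made active by IRE1's splicing, was at 76.3, 76.6 and 69.6 FPKM in the rShh libraries and 84.8, 88.0 and 91.8 FPKM in the Control libraries. The groups did not overlap, and the log2 change was -0.26 (SE 0.06, edgeR adjusted p = 0.00548). The isoform table had 1 Xbp1 transcript, so its spliced and unspliced forms cannot be told apart. Ppp1r15a (GADD34), the stress-induced phosphatase subunit that restores translation, had 43.2, 43.0 and 44.6 FPKM in the rShh libraries and 58.6, 58.3 and 60.4 FPKM in the Control libraries, a change of -0.45 (SE 0.05, edgeR adjusted p = 3.82e-05). The groups stood well apart. Its constitutive relative Ppp1r15b averaged 8.08 ± 0.117 FPKM in the rShh group and 7.36 ± 0.187 FPKM in the Control group and did not pass (log2 change 0.13, SE 0.06, edgeR adjusted p = 0.0975). The ratio of Atf6 to Xbp1 within a library was 0.638 ± 0.0405 in the rShh group and 0.272 ± 0.0431 in the Control group, and that of Ppp1r15b to Ppp1r15a 0.186 ± 0.00578 and 0.125 ± 0.00546 (SD, n = 3 each).

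Among the most abundant chaperones, Hsp90b1 (GRP94, the HSP90 of the ER lumen) rose while Hspa5 (BiP, the HSP70 that also holds the sensors inactive) fell. Hsp90b1 was at 596, 601 and 606 FPKM in the rShh libraries and 422, 377 and 363 FPKM in the Control libraries (log2 change 0.63, SE 0.05, edgeR adjusted p = 4.71e-06). Hspa5 was at 538, 547 and 555 FPKM in the rShh libraries and 685, 620.2 and 615 FPKM in the Control libraries (log2 change -0.24, SE 0.05, edgeR adjusted p = 0.0015). Neither gene's groups overlapped. The order of the pair turned round: the ratio of Hsp90b1 to Hspa5 within a library was 1.11, 1.10 and 1.09 in the rShh libraries and 0.616, 0.608 and 0.589 in the Control libraries. Such a ratio is free of the scaling between libraries. All pairs given as ratios were chosen after their values were seen, so no test was made on them.

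The lectin chaperones, which hold glycoproteins during folding, also went opposite ways. Membrane-bound Canx (calnexin) was at 201, 205 and 203 FPKM in the rShh libraries and 163, 148 and 132 FPKM in the Control libraries, and rose by 0.45 on the log2 scale (SE 0.06, edgeR adjusted p = 0.000174). Soluble Calr (calreticulin), first in level of the 35 in both groups, was at 777, 755 and 797 FPKM in the rShh libraries and 879, 884 and 925 FPKM in the Control libraries, with a log2 change of -0.22 (SE 0.05, edgeR adjusted p = 0.00237). The ratio of Canx to Calr was 0.262 ± 0.00906 in the rShh group and 0.165 ± 0.0213 in the Control group (SD, n = 3 each), without overlap.

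Co-chaperones and smaller folding factors also went both ways. Hyou1, the large HSP70 that exchanges nucleotide on BiP, had 69.3, 70.6 and 70.1 FPKM in the rShh libraries and 100.6, 100.9 and 102.9 FPKM in the Control libraries, and its log2 change of -0.54 (SE 0.04, edgeR adjusted p = 3.36e-06) was the lowest among the chaperones. The secreted stress proteins Manf and Creld2 averaged 199 ± 5.66 and 27.4 ± 0.824 FPKM in the rShh group and 256 ± 21.3 and 34.9 ± 1.86 FPKM in the Control group, with log2 changes of -0.37 and -0.36. Dnajb9 (ERdj4), a J-domain partner of BiP that acts in degradation and represses IRE1, was at 19.5, 18.6 and 20.05 FPKM in the rShh libraries and 14.2, 12.2 and 13.2 FPKM in the Control libraries (log2 change 0.54, SE 0.08, edgeR adjusted p = 0.00014). The J-domain partners Dnajb11 and Dnajc3, and Sdf2l1, were not called. Dnajb11 averaged 106 ± 3.73 and 108 ± 1.67 FPKM in the rShh and the Control group, Dnajc3 (p58IPK) 45.2 ± 0.925 and 39.9 ± 3.54, and Sdf2l1, which works with Dnajb11, 31.9 ± 1.19 and 27.7 ± 3.20. For Dnajc3 the edgeR adjusted p was 0.0582, and 4 of 16 alternatives put it below the threshold (range 0.0413 to 1), among them those without Control replicate 1 (0.0487) or Control replicate 2 (0.0413).

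**Figure D3:**
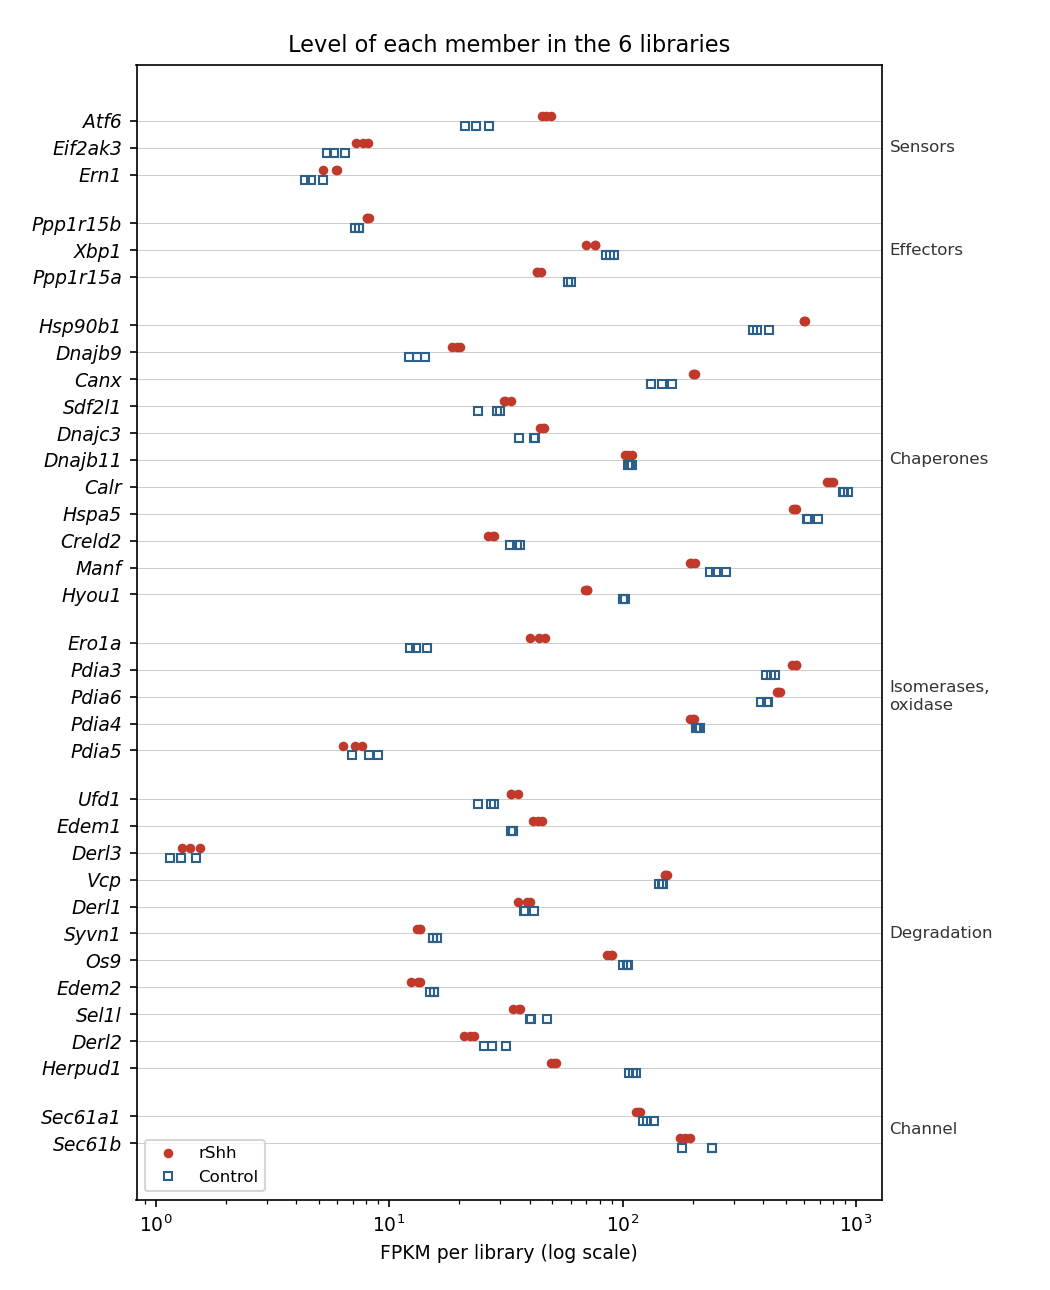
FPKM of each member (x axis, log scale) in the 3 rShh libraries (filled circles) and the 3 Control libraries (open squares), 1 gene a line, ordered within each role by log2 change. Levels run from about 1.4 FPKM for Derl3 to 776 and 896 FPKM for Calr in rShh and Control, and Ero1a and Herpud1 show the widest gaps between the groups.

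Ero1a, the oxidase that feeds disulfide bonds into the isomerases and a gene also known to respond to low oxygen, had the highest increase of the 35. It was transcribed from the minus strand of chromosome 15 (19619973 to 19655381) and was at 40.0, 46.8 and 43.9 FPKM in the rShh libraries and 13.1, 14.6 and 12.3 FPKM in the Control libraries. The groups were far apart, with a 3.24-fold difference (log2 change 1.70, SE 0.08, edgeR adjusted p = 7.38e-08), and the call held in each of the 16 alternatives (log2 change 1.63 to 1.77). The isomerases, which form and reshuffle disulfide bonds, changed less. Pdia3 (ERp57), the partner of calnexin and calreticulin, was at 529.8, 554 and 552 FPKM in the rShh libraries and 452, 433 and 409.8 FPKM in the Control libraries, a log2 change of 0.33 (SE 0.05, edgeR adjusted p = 0.000136). Pdia6 (P5) rose by 0.18 (SE 0.05, edgeR adjusted p = 0.00627), at 464 ± 8.31 FPKM in the rShh group and 408 ± 15.5 FPKM in the Control group, and with upper-quartile scaling it no longer passed (adjusted p = 0.0605, range over the alternatives 0.00113 to 1).

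Pdia4 (ERp72) and Pdia5 did not pass. Pdia4 averaged 199 ± 4.03 FPKM in the rShh group and 211 ± 4.45 FPKM in the Control group (edgeR adjusted p = 0.0923). Pdia5 averaged 7.07 ± 0.661 and 8.04 ± 1.03 FPKM in the rShh and the Control group, which overlapped. The ratio of Pdia3 to Pdia4 was 2.73 ± 0.0239 in the rShh group and 2.04 ± 0.0853 in the Control group, and that of Ero1a to Pdia6 was 0.0938 ± 0.00704 and 0.0328 ± 0.00412 in the same order of groups.

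Herpud1, which organises the ubiquitin ligase complex of ERAD and is among the genes most readily induced by ER stress, fell the most of the 35. Its locus is on chromosome 19 (11046909 to 11057254, minus strand), and it had 49.5, 51.9 and 51.0 FPKM in the rShh libraries and 106, 111 and 114 FPKM in the Control libraries. The groups were far apart, with the rShh level at 0.457-fold of the Control level (log2 change -1.13, SE 0.05, edgeR adjusted p = 7.84e-08), and the call held in each of the 16 alternatives (-1.20 to -1.10). The partners of its complex fell by less. The ligase Syvn1 (HRD1) averaged 13.4 ± 0.222 FPKM in the rShh group and 15.6 ± 0.319 FPKM in the Control group, and its scaffold Sel1l 35.4 ± 1.26 and 42.7 ± 4.27 FPKM, with log2 changes of -0.23 and -0.28. Os9, the lectin that delivers glycoproteins to it, averaged 88.3 ± 2.10 and 104 ± 3.08 FPKM in the rShh and the Control group (log2 change -0.24, SE 0.05, edgeR adjusted p = 0.00185).

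The derlins, membrane proteins through which substrates leave the ER, differed among themselves. Derl2 fell (22.1 ± 1.13 FPKM in the rShh group and 28.4 ± 3.12 FPKM in the Control group, log2 change -0.37, edgeR adjusted p = 0.00586). Derl1 averaged 38.2 ± 2.24 and 39.2 ± 2.27 FPKM in the rShh and the Control group and did not pass, nor did the sparse Derl3, at 1.42 ± 0.129 and 1.31 ± 0.168 FPKM. The ratio of Herpud1 to Derl1 was 1.38, 1.29 and 1.31 in the rShh libraries and 2.82, 2.91 and 2.72 in the Control libraries.

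The mannosidase-like proteins Edem1 and Edem2, which mark glycoproteins for degradation, moved in opposite directions. Edem1 was at 41.5, 45.1 and 43.6 FPKM in the rShh libraries and 33.2, 34.1 and 34.1 FPKM in the Control libraries (log2 change 0.35, SE 0.05, edgeR adjusted p = 0.000224). Edem2 was at 13.5, 13.3 and 12.4 FPKM in the rShh libraries and 15.6, 15.5 and 15.0 FPKM in the Control libraries (log2 change -0.24, SE 0.07, edgeR adjusted p = 0.0161). The Edem2 call was lost without rShh replicate 2 (edgeR adjusted p = 0.0526) or rShh replicate 3 (0.0794), where its alternatives ranged from 0.00432 to 1. The ratio of Edem1 to Edem2 was 3.07, 3.398 and 3.50 in the rShh libraries and 2.13, 2.20 and 2.27 in the Control libraries, without overlap. On the cytosolic side, Ufd1, a cofactor of the ATPase that pulls substrates out, rose (34.1 ± 1.22 FPKM in the rShh group and 26.5 ± 2.06 FPKM in the Control group, log2 change 0.36, edgeR adjusted p = 0.00133). The ATPase itself, Vcp (p97), averaged 153 ± 1.76 and 146 ± 2.82 FPKM in the rShh and the Control group and did not pass, and its sign turned with upper-quartile scaling.

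**Figure D4:**
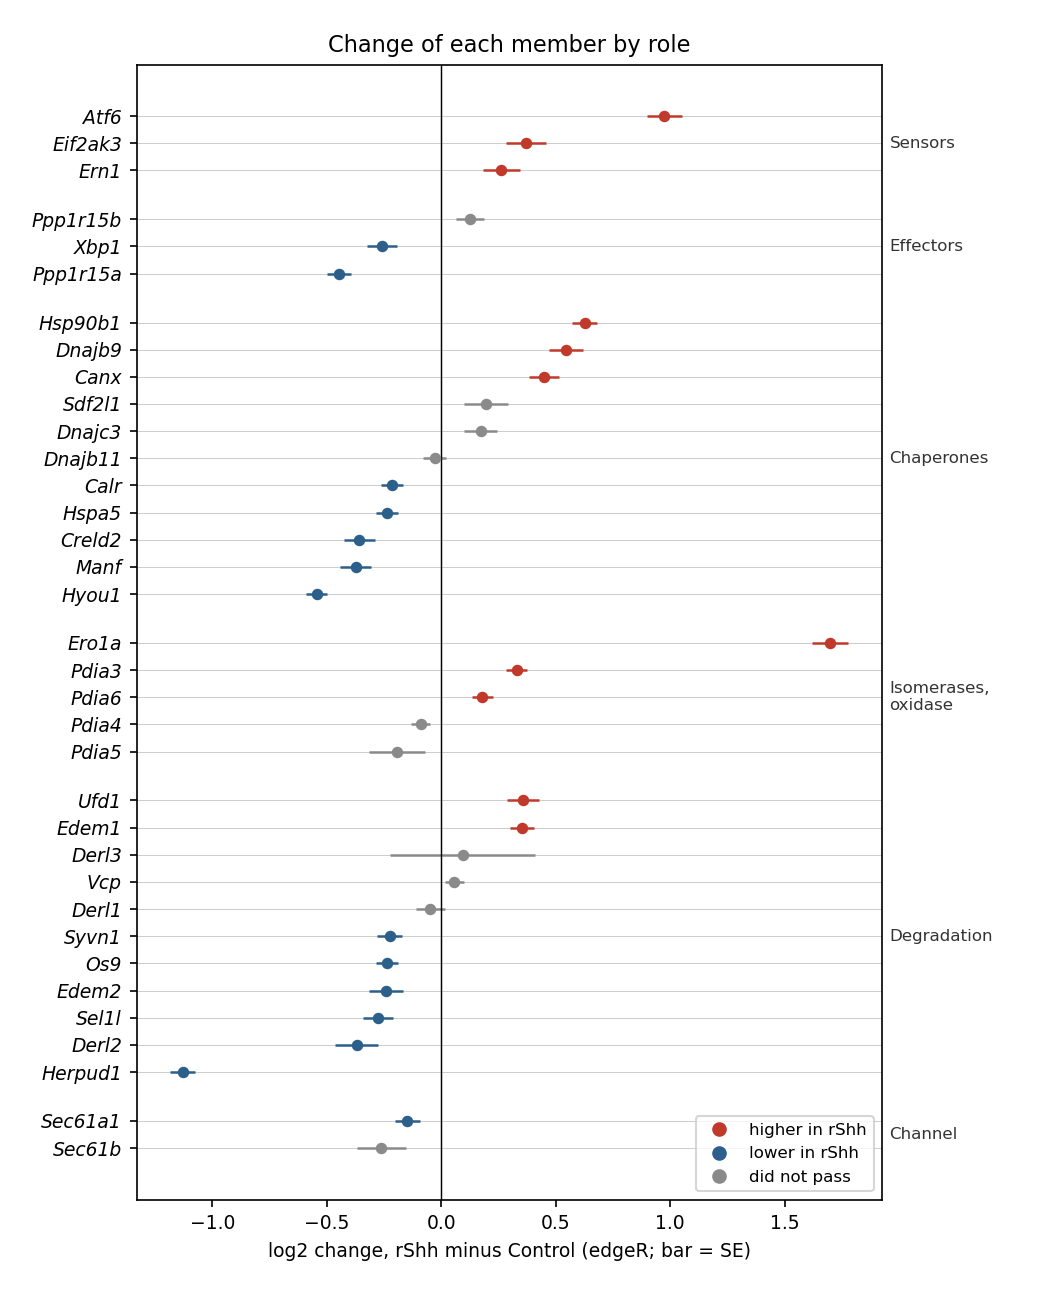
Log2 change between rShh and Control of each member (x axis, edgeR, bars show SE), grouped by role, with genes higher in rShh in red, lower in blue and those that did not pass in grey. The 3 sensors lie right of 0, Ero1a at 1.70 and Herpud1 at -1.13 mark the ends, and the chaperones and degradation genes lie on both sides.

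The channel subunits were lower or did not pass. Sec61a1, the pore, was at 116, 119 and 114 FPKM in the rShh libraries and 127, 122 and 136 FPKM in the Control libraries, a log2 change of -0.15 (SE 0.05, edgeR adjusted p = 0.0372). Its call was lost in 7 of 16 alternatives (edgeR, limma or DESeq2 adjusted p from 0.00658 to 1). Among them were those without rShh replicate 1 (0.0790), 2 (0.0906) or 3 (0.137) or Control replicate 3 (0.0596). It was also lost with all libraries kept, with the replicate number as a block (0.0725) and in limma without a filter. Sec61b, the tail-anchored beta subunit, was at 186, 177 and 194 FPKM in the rShh libraries and 181, 241 and 242 FPKM in the Control libraries. Control replicate 1 lay among the rShh values and the others above them. Over all libraries Sec61b did not pass in the main test (log2 change -0.26, edgeR adjusted p = 0.057). It passed in 4 of 16 alternatives (adjusted p from 0.000193 to 1). These were the one without Control replicate 1 (log2 change -0.40, edgeR adjusted p = 0.000193), upper-quartile scaling, library size alone and DESeq2.

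**Figure D5:**
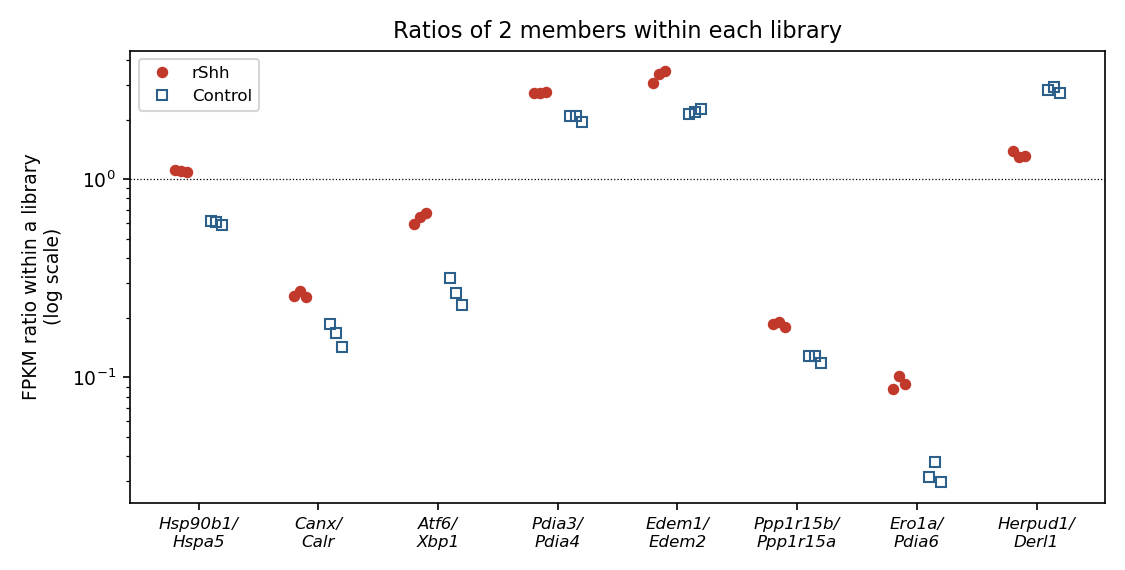
Ratio of the FPKM of 2 members within a library (y axis, log scale) for 8 pairs, in the 3 rShh libraries (filled circles) and the 3 Control libraries (open squares), with a dotted line at 1. The groups do not overlap for any pair, and the Hsp90b1 to Hspa5 ratio lies at 1.10 in rShh and 0.604 in Control, on opposite sides of the line.

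The isoform table held 40 transcripts of the 35 genes, 1 each for 30 genes and 2 each for 5. Of the 38 tested, 24 were called, against 45.1% of all transcripts. Second transcripts reached an average of 1 FPKM in Hsp90b1, Ppp1r15a and Sel1l. The main Hsp90b1 transcript (18 exons, 2799 bases) was at 662, 654 and 677 FPKM in the rShh libraries and 446, 416 and 409 FPKM in the Control libraries, while the other (17 exons, 3168 bases) varied from 12.7 to 28.6 FPKM in the rShh libraries and from 4.51 to 31.8 FPKM in the Control libraries. The second Ppp1r15a transcript (2 exons) took 3.75%, 7.12% and 7.32% of the gene's FPKM in the rShh libraries and 2.23%, 1.73% and 2.93% in the Control libraries, yet its own change did not pass (log2 change 0.93, SE 0.33, edgeR adjusted p = 0.0614). The shorter Sel1l transcript (2382 bases) had 0.0747, 0.811 and 0.0723 FPKM in the rShh libraries and 1.31, 2.26 and 3.601 FPKM in the Control libraries and did not pass either (log2 change -2.92, SE 1.04, edgeR adjusted p = 0.0634). Reads are assigned to such overlapping transcripts by estimate, so these values are uncertain.

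Genes of the same pathway that are not members were counted from lists set by function, with earlier results of these data known. Each list count below is to be read beside the shares over all genes tested. These were 31.5% higher, 28.8% lower and 60.3% called in either direction. Of 21 tested genes of translocation and signal peptide removal, 9 rose, 4 fell and 8 were not called (median log2 change 0.16). Tram1, which helps nascent chains into the channel, averaged 276 CPM in the rShh group and 177 CPM in the Control group (log2 change 0.64, SE 0.06), and Srp54a, of the signal recognition particle, 117 and 53.5 CPM (1.13, SE 0.10). Of 18 genes for N-glycosylation and glycan trimming, 6 rose, 6 fell and 6 did not pass (median -0.01). Magt1, of the oligosaccharyltransferase, averaged 134 CPM in the rShh group and 74.9 CPM in the Control group, and Ganab, glucosidase II, 461 and 667 CPM.

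Of 23 further ER oxidoreductases and prolyl isomerases, 10 rose, 10 fell and 3 did not pass (median -0.04). Tmx4, a membrane-bound isomerase relative, averaged 218 CPM in the rShh group and 84.4 CPM in the Control group (log2 change 1.37, SE 0.06), and Prdx4, the peroxiredoxin of the ER, 104 and 397 CPM (-1.94, SE 0.09). Of 17 further chaperones, 5 rose, 5 fell and 7 did not pass (median -0.01), and their summed level was 1465 ± 46.7 FPKM in the rShh group and 2688 ± 141 FPKM in the Control group. Serpinh1 (HSP47), the collagen chaperone, averaged 2441 CPM in the rShh group and 5506 CPM in the Control group (log2 change -1.17, SE 0.06). Clgn (calmegin), a relative of calnexin, averaged 13.5 CPM in the rShh group and 0.332 CPM in the Control group (5.34, SE 0.33).

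Of 28 further degradation genes, 5 rose, 12 fell and 11 did not pass (median -0.08). Edem3, of the same family as Edem1 and Edem2, averaged 74.4 CPM in the rShh group and 35.4 CPM in the Control group (log2 change 1.07, SE 0.08), and Erlec1, a lectin related in function to Os9, 75.7 and 35.4 CPM (1.10, SE 0.08). In the PERK-ATF4 branch 2 of 12 genes rose, 7 fell and 3 did not pass (median -0.43), and their summed level was 907 ± 16.7 FPKM in the rShh group and 1339 ± 47.3 FPKM in the Control group, with Atf5 at 236 CPM in the rShh group and 559 CPM in the Control group, and the pseudokinase Trib3 at 57.8 and 160 CPM. Of 13 ATF6-like factors, their proteases and sensor partners, 5 rose, 5 fell and 3 did not pass (median -0.08). Creb3l1 (OASIS), an ATF6-like factor of matrix-secreting cells, averaged 113 CPM in the rShh group and 179 CPM in the Control group (log2 change -0.67, SE 0.05). Map3k5 (ASK1), a kinase that acts below IRE1, averaged 17.0 and 7.67 CPM (1.147, SE 0.12).

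A wider view came from the KEGG column of the deposited table, used after the members' values were seen. It put 156 rows in protein processing in the ER, 29 of them members. Of the 125 others tested, 46 rose, 35 fell and 44 were not called; their median log2 change was 0.08. This stands beside 31.5% higher and 28.8% lower among all genes, so in both sets genes moved either way.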

How the data were processed

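Poly(A) RNA was sequenced in 3 rShh and 3 Control samples. The submitters' processing notes name StringTie 1.3.4d, HISAT2 2.0.4 and cutadapt 1.9, besides edgeR and DESeq2, with no role for any of them. A genome build is not given in the sources used here. The authors deposited whole-number counts, which are not normalized, and FPKM values for 19088 genes and 24343 transcripts. Libraries were made with dUTP strand marking, per the labels' protocols, and the strand setting of the counting is not stated.

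Counts were tested over all genes with edgeR 4.0.16 in R 4.3.3 (filterByExpr with a minimum count of 10, TMM scaling, glmQLFit and glmQLFTest, group as the only term, two-sided, Benjamini-Hochberg adjustment, threshold 0.05). Standard errors were taken as the log2 change over the square root of F. Levels are FPKM as deposited, or TMM-scaled CPM where named, as mean ± SD. Transcripts were tested in the same way. Alternatives used limma 3.58.1 on log2(FPKM + 1) or log2(FPKM + 0.1), DESeq2 1.42.0, other scalings, a replicate block and leaving out each library.

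All 35 members are named; of each other list, up to 2 called genes with the smallest p. Members, roles and lists were chosen with earlier results of these data known. Replicates differed by more than sampling noise (chi-square per degree of freedom 10.5 to 50.5 over genes whose counts in the pair summed to 100 or more), so each library counted as 1 sample. The edgeR procedure was tested on simulated data. Promoter windows came from RefSeq (GRCr8); protein sequences were not used here.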

Additional observations from a re-analysis of the deposited data

How the results depend on the processing

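The counts of members were 9 to 12 higher and 12 to 16 lower over 15 of 16 alternatives, and 9 of the 11 rises and 12 of the 14 falls were called in each of those 15. The exception is the test against a 1.5-fold change, which called 2 higher and 1 lower among the members (2167 and 1091 among all genes), with 1 sensor higher, 0 effectors lower, 0 chaperones higher and 0 lower, 1 isomerase or oxidase higher, 0 degradation genes higher and 1 lower, and 0 channel subunits lower. It asks for more than a difference from 0, so fewer calls follow from its construction. Channel subunits called lower, 1 as reported, were 2 with upper-quartile scaling, with library size alone and with DESeq2, 0 in limma without a filter and with the replicate block, and 0 to 2 when leaving out 1 library; the cause was not tested. Upper-quartile scaling also called 1 isomerase lower (Pdia4) and turned the sign of Vcp (log2 change -0.0094), and without Control replicate 3 Derl1 stood at 0.0032, against -0.0877 to -0.0145 without another library; neither passed there. No scaling moved the median of all genes by over 0.1 on the log2 scale (by 0.07 at most). Whether the same replicate numbers in both groups mark paired samples is not labelled. The correlation of deviations from the group means was -0.083, -0.007 and -0.001 for same-numbered libraries. With 3 samples in each group, such values cannot exclude a pairing. With the replicate block 11 members were higher and 13 lower, and 20 transcripts were called instead of 24. Counting error limits only Derl3, with as few as 52 counts in a library.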
